A study of Mus musculus with 8 samples.

Results

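Nrip1, its relative by name Nrip2, the nuclear receptor corepressor Ncor1 and the orphan receptors Nr2f1 and Nr2f2 were followed in thoracic perivascular adipose tissue, the fat around the thoracic aorta. These 5 genes were set by name, and each was represented by the probe set that the array's annotation assigns to its symbol alone. Of the 5, 4 had such a probe set, 1 each, among 18782 genes and 28371 probe sets in all. No probe set was assigned to Ncor1 in that annotation, so Ncor1 was not analysed here. Nrip1, Nrip2 and Nr2f1 were picked on these measurements: the rule that picked them from the log2 values asks for groups that do not overlap. Their differences are given as a description without a test.

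The study had 4 samples labelled RictoraP2KO and 4 samples labelled control, whose genotype is Rictorfl/fl. The first label names a deletion of Rictor, the subunit that defines mTOR complex 2, by Cre recombinase under the aP2 (Fabp4) promoter, and per the series title the deletion lies in brain as well as fat. Control mice carry the floxed alleles, and their labels name no Cre. All mice were male and 17 to 22 weeks old, untreated, without food overnight and sacrificed at 9 am. Labelling started from 5 µg of RNA per sample, and each sample had 1 array. Values are log2 signals after robust multi-array averaging (RMA), and differences are RictoraP2KO minus control on that scale, with their standard error (SE).

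The arrays agreed closely with each other over all probe sets, with correlations between 0.989 and 0.995. The array median was 3.76 in each, and a signal near or below that value is called dim. Rictor itself stood at 6.68 ± 0.08 (SD, n = 4) in the arrays labelled RictoraP2KO and at 6.54 ± 0.06 (SD, n = 4) in the control arrays, a difference of 0.14 that goes against the first label and did not pass (limma adjusted p = 0.6845). The deleted exons are not named in the labels and the probe positions were not examined, so each direction below rests on the labels. Of 28371 probe sets, 1 passed limma at an adjusted p under 0.05, which is 0.00352%, and it belonged to none of the genes described here. Fat cell markers were present throughout, with 10 of the 11 measured above the array median, and so were those of brown fat, again with 10 of 11. Adiponectin (Adipoq), a hormone of fat cells, stood at 10.96 ± 0.11 and 10.94 ± 0.10 (SD, n = 4 each) in RictoraP2KO and control arrays.

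NRIP1, also called RIP140, binds nuclear receptors through short leucine-rich motifs and brings in CtBP proteins and histone deacetylases, which silence the receptor's targets. In mouse fat cells it is known to hold back oxidative and thermogenic genes, among them Ucp1. NRIP2 is a smaller protein that also binds nuclear receptors, and NCOR1 is the scaffold that ties receptors without their ligand to the deacetylase HDAC3. COUP-TFI (Nr2f1) and COUP-TFII (Nr2f2) are orphan nuclear receptors that mostly repress and bind direct repeats of the sequence AGGTCA. COUP-TFII is known for setting the identity of veins and lymphatic vessels and for a part in fat cell differentiation.

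Nrip1 and Nr2f1, both picked for groups that do not overlap, were higher in the arrays labelled RictoraP2KO, and Nr2f2 had overlapping groups. The windows before the outermost annotated start of each are shown, Nr2f2 being the paralog of Nr2f1. They come from RefSeq on build GRCm38.p6, hold the 250 bases before the start and read 5′ to 3′ on the minus strand of chr16:76373828-76374077, chr13:78198874-78199123 and chr7:70366747-70366996. Of the 5 genes, 4 had entries there, with 7 starts in all. Capitals mark the letters GGTCA, the core of the sequence that nuclear receptors bind, the GC box GGGCGG and the CCAAT box CCAAT, each on either strand.
Nrip1: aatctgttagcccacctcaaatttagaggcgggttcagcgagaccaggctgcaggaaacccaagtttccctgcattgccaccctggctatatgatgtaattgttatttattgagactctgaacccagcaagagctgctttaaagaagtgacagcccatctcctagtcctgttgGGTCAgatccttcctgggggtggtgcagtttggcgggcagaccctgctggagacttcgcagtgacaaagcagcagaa
Nr2f1: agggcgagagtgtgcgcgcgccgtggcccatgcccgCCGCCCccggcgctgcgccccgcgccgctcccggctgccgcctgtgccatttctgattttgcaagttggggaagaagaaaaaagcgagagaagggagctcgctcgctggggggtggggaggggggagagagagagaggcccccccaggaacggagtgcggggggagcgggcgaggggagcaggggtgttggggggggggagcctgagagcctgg
Nr2f2: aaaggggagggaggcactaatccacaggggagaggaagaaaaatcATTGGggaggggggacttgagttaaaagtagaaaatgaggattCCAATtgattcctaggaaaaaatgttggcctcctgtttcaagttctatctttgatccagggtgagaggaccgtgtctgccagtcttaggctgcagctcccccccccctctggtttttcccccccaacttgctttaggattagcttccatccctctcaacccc

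The Nrip1 window held 1 GGTCA core, the Nr2f1 window 1 GC box and the Nr2f2 window 2 CCAAT boxes, which do not overlap each other. The second Nrip1 start had 2 GC boxes, overlapping, and no core, and the second Nr2f1 start 1 GGTCA core and no GC box, so what a window held changed with the start. Over the 32851 windows of this length in RefSeq, GGTCA was found in 35.2%, GGGCGG in 32.7% and CCAAT in 33.85%. The full receptor hexamer AGGTCA, in 14.0% of all windows and containing the core, was in none of the 7 windows of Nrip1, Ncor1, Nr2f1 and Nr2f2. The same held for the clock E-box CACGTG (6.02% of all windows), the D-box TTACGTAA (0.11%) and the cAMP response element TGACGTCA (1.55%). The GC content was 51.2% for Nrip1, 72.0% for Nr2f1 and 50.0% for Nr2f2, against a median of 52.4% over all windows. These matches describe letters and no binding was measured.

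Nrip1 was higher in the arrays labelled RictoraP2KO. Its signal (probe set 10440406) was 6.24, 6.29, 6.30 and 6.55 in RictoraP2KO replicates 1 to 4, against 5.85, 5.84, 5.94 and 5.65 in control replicates 1 to 4. The lowest RictoraP2KO array lay 0.30 above the highest control array. RictoraP2KO replicate 4 was the highest of the 8 arrays and control replicate 4 the lowest, and the other 3 arrays of each group lay close together. The means were 6.35 ± 0.14 and 5.82 ± 0.12 (SD, n = 4 each) in RictoraP2KO and control arrays, a difference of 0.53 (SE 0.090) or 1.44-fold. In whole tissue such as this, a change in the number of cells of a type and a change in RNA per cell cannot be told apart.

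Nrip2 was lower in the arrays labelled RictoraP2KO, opposite to Nrip1. Its signal (probe set 10542093) was 3.50, 3.31, 3.71 and 3.37 in RictoraP2KO replicates 1 to 4, against 3.90, 3.81, 3.99 and 4.01 in control replicates 1 to 4. RictoraP2KO replicate 3 came within 0.10 of the lowest control array, control replicate 2. The means were 3.47 ± 0.17 and 3.92 ± 0.09 (SD, n = 4 each) in RictoraP2KO and control arrays, a difference of -0.45 (SE 0.094). The signal is dim, with a mean of 3.70 over all arrays, so no fold is given.

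Nr2f1 was higher in the arrays labelled RictoraP2KO. Its signal (probe set 10410766) was 2.77, 2.87, 2.95 and 2.81 in RictoraP2KO replicates 1 to 4, against 2.32, 2.29, 2.43 and 2.58 in control replicates 1 to 4. The gap between the groups was 0.19, set by RictoraP2KO replicate 1 and control replicate 4. The means were 2.85 ± 0.08 and 2.41 ± 0.13 (SD, n = 4 each) in RictoraP2KO and control arrays, a difference of 0.44 (SE 0.079). All 8 values lay below the array median, so no fold is given.

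Nr2f2, which was not picked for its values, had overlapping groups. Its signal (probe set 10564527) was 5.89, 6.00, 6.08 and 6.00 in RictoraP2KO replicates 1 to 4, against 5.95, 5.79, 6.14 and 5.97 in control replicates 1 to 4. The highest and the lowest array were both controls, replicates 3 and 2. The means were 6.00 ± 0.08 and 5.96 ± 0.14 (SD, n = 4 each) in RictoraP2KO and control arrays, a difference of 0.03 with a 95% interval from -0.15 to 0.22 (limma adjusted p = 0.951). Permuting the labels in all 70 ways gave an exact two-sided p of 0.7429, where 0.0286 is the smallest possible. Its sign turned without control replicate 2, to -0.02. Since Nr2f1 was picked for its difference, the paralogs were not compared with each other.

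The groups of 3 of the 4 measured genes did not overlap, 2 higher and 1 lower in the arrays labelled RictoraP2KO, which is what they were picked for. Over all probe sets 4.25% had no overlap, 2.08% higher and 2.17% lower. Among the 18782 genes, with 1 probe set each, 282 were higher and 389 lower without overlap. Nrip2, with a gap of 0.10, lay nearest to the limit from inside, and Nr2f2, whose groups overlapped by 0.25, was the member outside it.

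**Figure D1:**
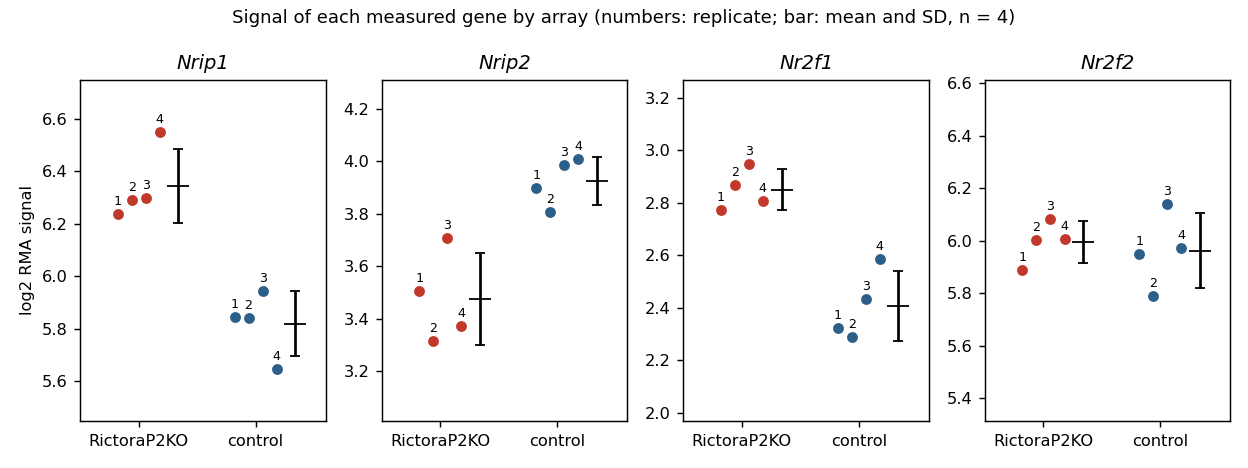
Log2 RMA signal (vertical axis, same span of 1.3 in each panel) of Nrip1, Nrip2, Nr2f1 and Nr2f2 in the 4 arrays labelled RictoraP2KO (red) and the 4 control arrays (blue); numbers give the replicate, and the bar is the mean with its SD. Nrip1 and Nr2f1 are higher and Nrip2 lower in all 4 RictoraP2KO arrays, and the Nr2f2 groups overlap.

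Within the groups the members varied together or apart to a different degree in each pair. The deviations of Nrip1 from its group means had a Pearson r of -0.33 with those of Nrip2 over the 8 arrays, of -0.45 with those of Nr2f1 and of 0.27 with those of Nr2f2. Those of Nr2f1 had an r of 0.60 with Nrip2 and of 0.59 with its paralog Nr2f2, and those of Nrip2 and Nr2f2 one of 0.49. These are descriptions over 8 arrays that share 1 normalisation, and the signals of Nrip2 and Nr2f1 are dim.

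Of the genes that work with corepressors, none passed. A list of 24 genes of corepressor complexes and their deacetylases had 23 measured, 9 above and 14 below 0, with a median difference of -0.01, beside a median of -0.01 over all 18782 genes. None of them passed limma at an adjusted p under 0.05 and 0 had an unadjusted p under 0.05, where the background over all probe sets was 7.27%. The lists hold 1 probe set per gene. Among all 18782 genes taken that way, 548 were higher and 669 lower at an unadjusted limma p under 0.05. These gene counts apply to the lists below too. The smallest p-values belonged to Tbl1xr1, a subunit of the NCOR1 complex (0.26, SE 0.150), to Zbtb16, a repressor that recruits NCOR1 (0.70, SE 0.414), and to Nrip3, which shares the name of Nrip1 and Nrip2 (-0.14, SE 0.092). Partners of NRIP1 and NCOR1 named for their known role, after their values were seen, were the deacetylase gene Hdac3 (-0.08, SE 0.121) and the CtBP genes Ctbp1 (-0.002, SE 0.076) and Ctbp2 (-0.07, SE 0.058).

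Coactivators, which compete with corepressors for receptors, were also near 0. Of 20 listed, 19 were measured, 10 above and 9 below 0, with a median of 0.01. None passed at an adjusted p under 0.05, and 2 had an unadjusted limma p under 0.05, both higher, where 3.85% of all probe sets were higher at that level. They were Ncoa7 (0.34, SE 0.138) and Ncoa5 (0.23, SE 0.0999), both coregulators of estrogen receptors. The third was Smarcd3, a subunit of a chromatin remodelling complex (-0.17, SE 0.095).

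The receptors that NRIP1 is known to bind showed differences of either sign, from -0.37 to 0.19. Of 23 listed, 20 were measured, 8 above and 12 below 0, with a median of -0.02 and 0 at an adjusted or unadjusted limma p under 0.05. Esrra, an estrogen-related receptor that drives mitochondrial genes, differed by -0.19 (SE 0.102), its dim relative Esrrb by -0.14 (SE 0.069), and Rxra, the common partner of many receptors, by 0.19 (SE 0.098). The lowest values, named after they were seen, were those of Esrrg, the third estrogen-related receptor (-0.37, SE 0.211), and Ppara, a regulator of fat oxidation (-0.27, SE 0.148).

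Oxidative, thermogenic and fuel genes of the kind that NRIP1 restrains in fat did not pass either. Of 24 listed, 22 were measured, and 17 were below 0, but by little: the median was -0.02. Among all 18782 genes, 9980 were below 0. None of the list passed at an adjusted p under 0.05. Only 1 had an unadjusted limma p under 0.05, and it was higher, where 3.85% of all probe sets were higher at that level. This was Cycs, cytochrome c, at 11.30 ± 0.07 in RictoraP2KO arrays and 11.12 ± 0.04 in control arrays (SD, n = 4 each), a difference of 0.18 (SE 0.058; limma adjusted p = 0.6506). Of its 3 probe sets, 2 had this sign and the lowest stood at -0.21. Fabp3, which binds fatty acids in oxidative tissue, had the lowest value of the list, -0.60 (SE 0.350), and the cytochrome oxidase subunit Cox7a1 differed by -0.13 (SE 0.067). Ucp1, the uncoupling protein of brown fat, differed by 0.07 (95% interval from -0.28 to 0.43) and Cidea, a lipid droplet protein of brown fat, by -0.05 (95% interval from -0.19 to 0.09); both were named for their known link to NRIP1 after their values were seen. Per array the mean of this list, as a deviation from the mean over the arrays, ran from -0.24 to 0.12 in RictoraP2KO arrays and from -0.09 to 0.09 in control arrays, so the groups overlapped. The lowest was RictoraP2KO replicate 1.

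Among the relatives of the COUP-TFs, 13 of 14 listed NR2 receptors and cofactors were measured, 7 above and 6 below 0, with a median of 0.01 and 0 at an adjusted or unadjusted limma p under 0.05. Nr2f6, the third COUP-TF-like receptor, differed by -0.005 (SE 0.111), and Zfpm2, a cofactor that binds COUP-TFs, by 0.10 (SE 0.103); both were named after their values were seen. By the rule for named genes, Hnf4a, a receptor of liver and gut, differed by 0.09 (SE 0.058) and Bcl11b, a zinc finger protein that binds COUP-TFs, by 0.11 (SE 0.072), both dim.

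Genes of vessel identity, a process that COUP-TFII is known to govern, were on balance slightly above 0 and did not pass. Of 9 measured venous and lymphatic genes of 10 listed, 7 were above 0 with a median of 0.07, and Emcn, an endothelial surface mucin of veins and capillaries, had an unadjusted limma p under 0.05 (0.17, SE 0.071; adjusted p = 0.6737). Among all probe sets 3.85% were higher at that level. Lyve1, a marker of lymphatic vessels, differed by 0.30 (SE 0.212) and Pdpn, podoplanin, by 0.20 (SE 0.139). Of 14 arterial and Notch genes, 9 were above 0 with a median of 0.05, and 0 had an unadjusted p under 0.05. Hey1, a target of Notch, differed by -0.36 (SE 0.186), Sox17, a factor of arterial identity, by 0.25 (SE 0.175), and Unc5b, a guidance receptor of arteries, by 0.18 (SE 0.140).

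NRIP1 is also known as a coregulator of ROR receptors, which act on the promoter of Arntl. Of 13 measured clock genes, 4 were higher and 2 lower at an unadjusted limma p under 0.05 (3.85% and 3.42% of all probe sets), and 0 passed at an adjusted p under 0.05. Arntl, which encodes BMAL1, differed by 0.62 (SE 0.123), Npas2, its partner, by 1.23 (SE 0.317) and Nr1d2, a repressor that competes with ROR receptors, by -0.99 (SE 0.221), with limma adjusted p-values from 0.5241 to 0.6263. The second probe set of Nr1d2 stood at -0.03.

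**Figure D2:**
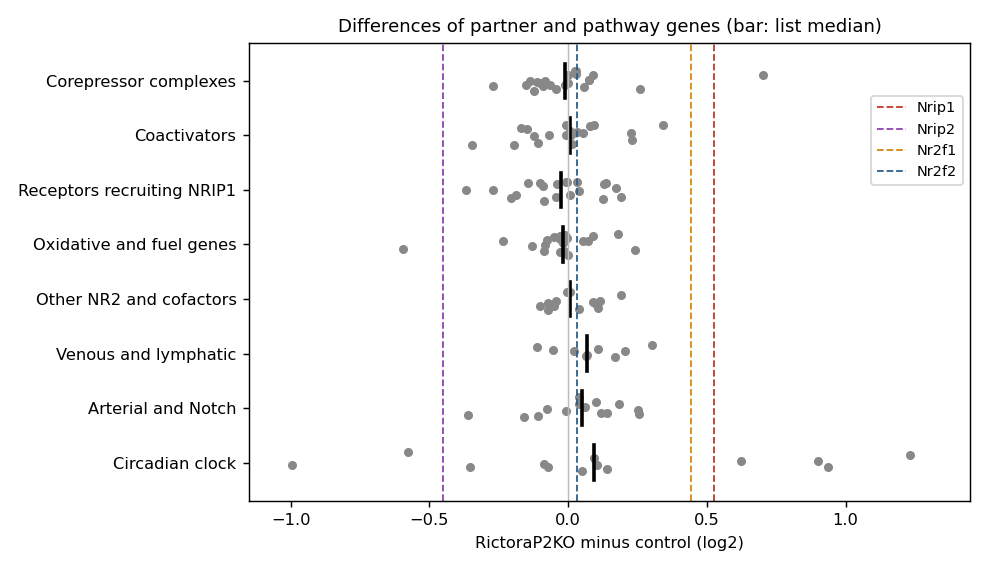
Difference between RictoraP2KO and control arrays on the log2 scale (horizontal axis) for each measured gene (grey points) of 8 gene lists, with the list median as a black bar; vertical position within a list is random. Dashed lines mark Nrip1 at 0.53, Nr2f1 at 0.44, Nr2f2 at 0.03 and Nrip2 at -0.45, and the list medians lie between -0.02 and 0.09.

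For each measured gene, the 3 genes with the most similar course over the 8 arrays were sought among named genes above the array median (10042 candidates for Nrip1 and Nr2f2, 10043 for Nrip2 and Nr2f1). With so many candidates and 8 arrays, values of r near 1 arise readily, so they are descriptions of these arrays. Genes most like Nrip1, Nrip2 or Nr2f1, which were picked for groups that do not overlap, tend to separate the groups too. For Nrip1 the nearest were Alg10b (Pearson r 0.97, Spearman rho 0.98), Zfp362 (0.95 and 0.95) and Ap5m1 (0.95 and 0.91). Alg10b encodes an enzyme that adds the last glucose to the sugar chain for N-glycosylation. It was 6.96, 6.98, 7.02 and 7.06 in RictoraP2KO replicates 1 to 4, against 6.79, 6.82, 6.90 and 6.70 in control replicates 1 to 4. Within each group it kept nearly the order of Nrip1, and the deviations from group means had an r of 0.88. The most opposite to Nrip1 were Tesc, which encodes the calcium-binding tescalcin (r -0.97), Shmt1, an enzyme of folate metabolism (-0.94), and Mfsd12, a lysosomal carrier (-0.94).

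For Nrip2 the nearest were Syngr1, a synaptic vesicle protein (r 0.97, rho 0.98), the formin gene Fhod1 (0.96 and 0.91) and Emc10 of the membrane protein insertion complex (0.96 and 0.98). Syngr1 was 6.27, 6.13, 6.43 and 6.23 in RictoraP2KO replicates 1 to 4, against 6.48, 6.48, 6.56 and 6.50 in control replicates 1 to 4. Its groups did not overlap, as its likeness to Nrip2 makes likely, and the r of the deviations was 0.92. The most opposite were Rasgrp1, an activator of RAS in lymphocytes (r -0.97), Elmo1, which acts in cell engulfment and migration (-0.97), and Lrrc58 (-0.96).

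For Nr2f1 the nearest were Col4a1, a collagen of basement membranes (r 0.94, rho 0.95), Ccdc25 (0.94 and 0.98) and Mbd2, a reader of methylated DNA (0.93 and 0.88). Col4a1 was 6.08, 6.33, 6.18 and 6.15 in RictoraP2KO replicates 1 to 4, against 5.81, 5.82, 5.87 and 5.99 in control replicates 1 to 4. The groups did not overlap, as its likeness to Nr2f1 makes likely, and the r of the deviations was 0.71. The most opposite were Map11 (r -0.97), the palmitoyltransferase gene Zdhhc14 (-0.97) and Fam102a (-0.94). Zdhhc14 had 2 probe sets, with differences of -0.30 and 0.0087.

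The genes nearest to Nr2f2 did not separate the groups. First came Flt4, which encodes VEGFR3, the growth factor receptor of lymphatic endothelium (r 0.98, rho 1.0 over 8 arrays). Flt4 was 4.71, 4.95, 5.14 and 5.06 in RictoraP2KO replicates 1 to 4, against 4.84, 4.47, 5.20 and 4.93 in control replicates 1 to 4. It ranked the 8 arrays in the same order as Nr2f2, with an r of 0.98 for deviations from group means and 0.965 without the 2 arrays farthest from the median. Next were Tirap, an adaptor of Toll-like receptors (r 0.975, rho 1.0), and Armc5 (0.95 and 0.93). The most opposite were Bckdhb of branched-chain amino acid breakdown (r -0.96), Dctn6 of the dynactin complex (-0.95) and Pdgfra, a receptor of fibroblasts and fat precursors (-0.91).

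**Figure D3:**
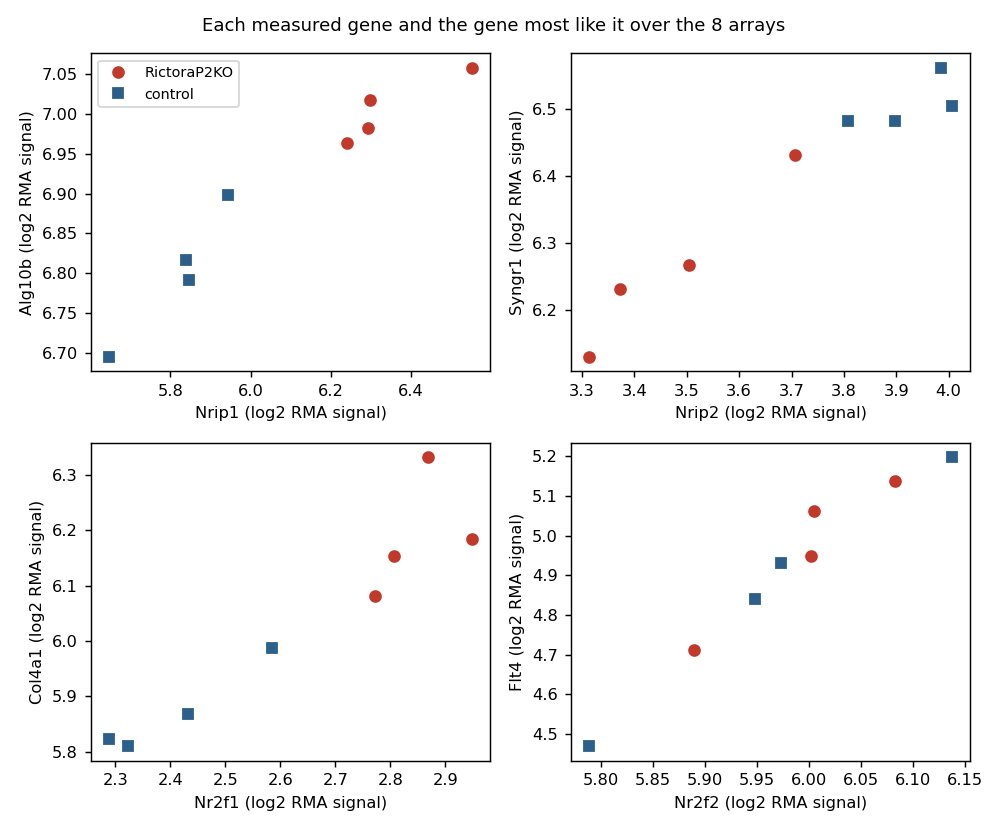
Log2 RMA signal of Nrip1, Nrip2, Nr2f1 and Nr2f2 (horizontal axes) against that of the gene most like it over the 8 arrays (vertical axes), with RictoraP2KO arrays as red circles and control arrays as blue squares. In the panels of Nrip1, Nrip2 and Nr2f1 the groups lie apart along both axes, and in the panel of Nr2f2 and Flt4 they mix along 1 line. Nrip1, Nrip2 and Nr2f1 were picked for groups that do not overlap, and the genes beside them for likeness to them.

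Signal of other tissues was uneven between the arrays. As list means of deviations, lung epithelial markers (8 of 8 measured) reached 2.70 in control replicate 2, against -0.55 to -0.27 in the other arrays. Skeletal muscle markers (10 of 10) reached 1.24 in RictoraP2KO replicate 2, against -0.24 to -0.07 elsewhere, and neuron markers (12 of 12) reached 1.22 in control replicate 3, against -0.30 to -0.08 elsewhere. Without these 3 arrays the differences were 0.62 for Nrip1, -0.42 for Nrip2, 0.39 for Nr2f1 and 0.03 for Nr2f2. Nrip1, Nrip2 and Nr2f1 were picked for groups that do not overlap, so leaving arrays out could not change their direction. Cardiac muscle markers (10 of 11) ran from -1.14 to 1.40 in RictoraP2KO arrays and from -0.76 to 0.64 in control arrays, with RictoraP2KO replicate 1 lowest and RictoraP2KO replicate 2 highest. In those arrays, in that order, Nrip1 was 6.24 and 6.29, Nrip2 3.50 and 3.31, Nr2f1 2.77 and 2.87, and Nr2f2 5.89 and 6.00. Leaving out the 3 arrays named above did not even out cardiac signal. The median difference of the cardiac list was then -0.88, against -0.10 with all arrays. The remaining RictoraP2KO arrays ran from -1.14 to -0.01 on that list, and the remaining controls from 0.04 to 0.32. The part of other tissues in the differences of these genes was not tested.

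Markers of supporting and immune cells moved with the groups in part. Fibroblast markers were above 0 for 11 of 12 genes, with a median of 0.19. An unadjusted limma p under 0.05 was found for 3 of them, the collagen gene Col1a1 (0.33, SE 0.109), the matrix gene Postn (0.29, SE 0.097) and Pdgfrb, a receptor of pericytes and fibroblasts (0.21, SE 0.078), where 3.85% of all probe sets were higher at that level, and 0 passed when adjusted. Their list mean ran from -0.11 to 0.35 in RictoraP2KO arrays and from -0.17 to -0.02 in control arrays, and without RictoraP2KO replicate 1 the median was 0.08. Macrophage markers were above 0 for 10 of 10 genes, with a median of 0.33 (0.20 without the 3 arrays named above) and a list mean from -0.26 to 0.41 in RictoraP2KO arrays and from -0.28 to 0.01 in control arrays. Of them Mrc1, the mannose receptor, differed by 0.43 (SE 0.125), Mpeg1, a pore-forming protein, by 0.55 (SE 0.197) and C1qb of complement by 0.37 (SE 0.161); these 3 of 10 were higher at an unadjusted limma p under 0.05, and none passed when adjusted. In both lists RictoraP2KO replicate 3 lay in the control range, with Nrip1 at 6.30, Nr2f1 at 2.95, the highest of all arrays, and Nrip2 at 3.71, the RictoraP2KO value nearest to the controls. RictoraP2KO replicate 4 lay in the control range for fibroblast markers alone, with Nrip1 at 6.55, Nr2f1 at 2.81 and Nrip2 at 3.37. The part of these cells in the differences of Nrip1, Nrip2 and Nr2f1 was not tested.

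B cell markers (9 of 10 measured) were above 0 for 9 of 9 genes, with a median of 0.32 and 0 at an unadjusted limma p under 0.05. Their list mean ran from -0.31 to 0.84 in RictoraP2KO arrays and from -0.39 to 0.10 in control arrays, and without RictoraP2KO replicate 2, the highest, the median was 0.12. Smooth muscle markers (8 of 8) ran from -0.31 to 0.27 and from -0.32 to 0.32 in RictoraP2KO and control arrays. They were below 0 for 6 of 8 genes, with a median of -0.18, and -0.02 without control replicate 4. Neuron markers were below 0 for 12 of 12 genes, with a median of -0.24, and -0.07 without control replicate 3. Mesothelial markers (8 of 8) ran from -0.33 to 0.22 in RictoraP2KO arrays and from -0.25 to 0.51 in control arrays, with 4 genes above and 4 below 0. The keratin gene Krt18 of the mesothelial list had an unadjusted limma p under 0.05 (-0.33, SE 0.117) and did not pass when adjusted. Among all probe sets 3.42% were lower at that level. Fat cell markers had a median difference of 0.02 and brown fat markers one of -0.02, each with 0 genes at an unadjusted limma p under 0.05. Lpl, the lipase that frees fatty acids from circulating fat, differed by 0.11 (SE 0.078), Plin4, a lipid droplet coat protein, by 0.09 (SE 0.098) and Pparg, the regulator of fat cell formation, by -0.21 (SE 0.114). RictoraP2KO replicate 1 had the highest fat cell mean, 0.22, which rested on the leptin gene Lep. Lep stood at 5.81 there and at 2.75 to 3.48 in the other RictoraP2KO arrays, against 2.74 to 3.75 in control arrays, and the mean of the 10 remaining markers in RictoraP2KO replicate 1 was 0.015. Lep was named after its values were seen. The brown fat mean was lowest in the same array, at -0.41.

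**Figure D4:**
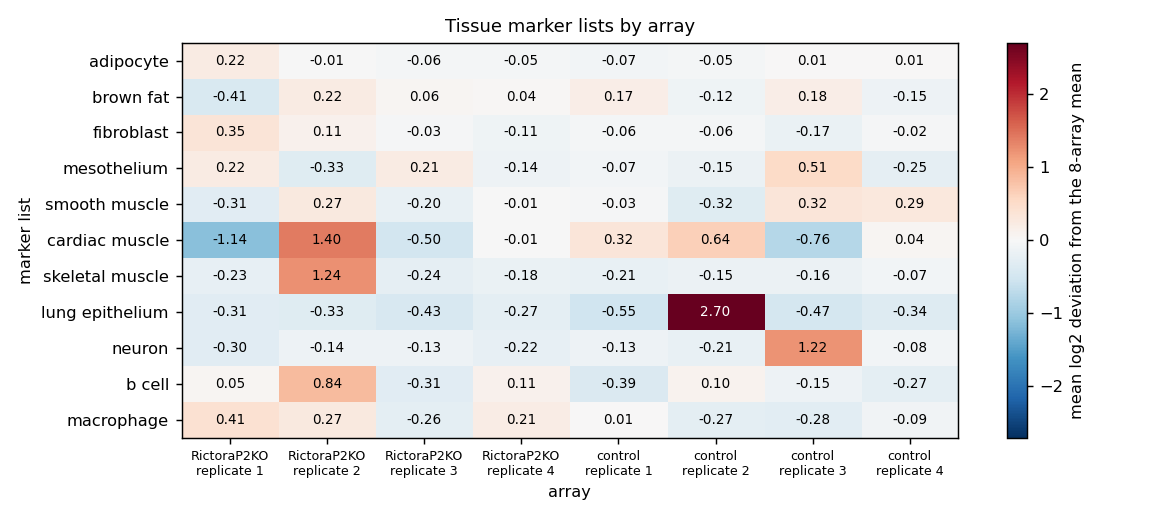
Mean log2 deviation from the 8-array mean (colour and number) for 11 marker lists (rows) in the arrays labelled RictoraP2KO (left 4 columns) and control (right 4 columns). Single arrays stand out for lung epithelium (control replicate 2, 2.70), skeletal muscle (RictoraP2KO replicate 2, 1.24) and neurons (control replicate 3, 1.22).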

How the data were processed

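Thoracic perivascular fat RNA was hybridised to 1 array per sample. The authors deposited 1 table of log2 values, which per the submitters' processing notes came from RMA (Affymetrix Power Tools, 1.10.2). The values ran from 1.04 to 12.5, and since all arrays have the same median of 3.76, a difference in total RNA between groups would not be seen. The array number limits precision. The platform annotation left 5332 probe sets without a symbol, gave 1881 more than 1 and gave 21158 exactly 1; where several probe sets named a gene, the brightest on average was used. Scanner files were not used here, nor were protein sequences.

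All probe sets were tested together with limma (version 3.58.1, under R 4.3.3), using two-sided moderated tests, Benjamini-Hochberg adjustment over 28371 probe sets and a threshold of 0.05, no filter and no covariate. The code was tested on simulated data. Labels name separate samples and not separate animals, so p-values reflect only how these samples vary. Single values were compared by an exact permutation test in scipy 1.17.1. Of 256 entries in 19 gene lists, 242 were measured; lists are described by counts and medians. Members and lists were chosen with earlier results of these data known. Named genes were, by rule, the members, Rictor, the 3 genes most and the 3 least like each member, and up to 3 genes per list with the smallest unadjusted p; others are marked as named after their values were seen. The GGTCA, GC box and CCAAT searches were added after the other motifs gave no match. Replicate numbers were not treated as pairs in the main fit. Deviations of same-numbered arrays had correlations of -0.15, -0.03, 0.03 and 0.09. Signal of other tissues in single arrays enters these deviations too, so they cannot exclude a pairing.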

Additional observations from a re-analysis of the deposited data

Results flagged for a closer look

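Of the values of Rictor, of the 4 measured members and of the 19 list means, each looked at in both groups of 4 arrays, 4 list means had a single array farther from the others than Dixon's 95% limit, which chance passes in about 1 in 20 groups. Those of the lung epithelium list (control replicate 2, 2.70, other controls at most -0.34), of the neuron list (control replicate 3, 1.22, other controls at most -0.08) and of the skeletal muscle list (RictoraP2KO replicate 2, 1.24, other RictoraP2KO arrays at most -0.18) are described above. The fourth was the fat cell marker list, which reached 0.22 in RictoraP2KO replicate 1, against -0.06 to -0.01 in the remaining RictoraP2KO arrays; without Lep, which stood at 5.81 there, the mean of the other 10 genes was 0.015. No member gene had such an array in either group.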

How the results depend on the processing

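Nrip1 and Nr2f1 stayed higher, and Nrip2 lower, in the arrays labelled RictoraP2KO under each alternative run (16 for Nrip1, 15 each for Nrip2 and Nr2f1, since the filter on dim probe sets removes both). Since these 3 genes were picked for groups that do not overlap, leaving arrays out could not change their direction. Values ran from 0.46 to 0.62 for Nrip1, from -0.53 to -0.40 for Nrip2 and from 0.39 to 0.50 for Nr2f1. Nr2f2 passed in none of its 16 alternatives, with values from -0.025 (without control replicate 2, the lone change of sign) to 0.092 (without control replicate 3). With the replicate number as a block the differences of the 4 genes were 0.53, -0.45, 0.44 and 0.03, and 0 probe sets in all passed, where 1 passed without it. That count was also 0 without dim probe sets and 0 without the 3 arrays with signal of another tissue, and it ran from 0 to 5 when 1 array was left out, with 5 without RictoraP2KO replicate 1; fewer probe sets or arrays entered those fits, and the cause was not tested. Averaging several probe sets of a gene was not run, since each member has 1. Of the list medians near 0, that of the NRIP1-binding receptors ran from -0.07 to 0.01 when 1 array was left out, that of the venous and lymphatic genes from 0.08 to 0.17 (0.02 without the 3 arrays), that of the NR2 receptors and cofactors from -0.02 to 0.08 (0.06 without the 3 arrays) and that of the clock genes from -0.02 (without RictoraP2KO replicate 2) to 0.12. Dim signals limit what can be said of Nr2f1 and Nrip2.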

Other observations

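Genes that lie next to the members on their chromosomes, in RefSeq order, were read after the other results were seen. Nrip1 on chromosome 16 differed by 0.53, while Samsn1, the nearest measured gene on one side, differed by 0.28 (SE 0.153) and Usp25, the nearest on the other, by 0.06 (SE 0.071). Next to Nrip2 on chromosome 6, Rhno1 differed by 0.15 (SE 0.078) and Itfg2 by -0.08 (SE 0.104), where Nrip2 differed by -0.45. Next to Nr2f1 on chromosome 13, Arrdc3, an arrestin-like gene that tempers beta-adrenergic signalling, was at 7.98 in RictoraP2KO arrays and 7.45 in control arrays, a difference of 0.52 (SE 0.183; limma adjusted p = 0.6578) with overlapping groups. On the other side of Nr2f1, Pou5f2 differed by 0.06 (SE 0.074). Next to Nr2f2 on chromosome 7, Arrdc4 differed by 0.03 (SE 0.065) and B130024G19Rik by 0.05 (SE 0.116). Tulp3, which lies beyond Rhno1 and was named after its value was seen, differed by 0.31 (SE 0.127). Arrdc3 and Tulp3 were higher at an unadjusted limma p under 0.05, as were 3.85% of all probe sets. None of these genes passed limma at an adjusted p under 0.05.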
